A study of Mus musculus with 5 samples.

Results

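The regions described here carried a β-catenin ChIP-seq peak in CHIR99021-treated mouse embryonic stem cells through only 1 of 2 ways of capturing the protein, and also a peak in DMSO-treated cells. They were chosen by the peak calls themselves. Overlapping or touching peak intervals of the 3 deposited lists were merged into 33485 regions, and 325 of these held a DMSO peak and a CHIR99021 peak from a single capture. Of the 325, 162 had an anti-FLAG peak and no CHIR99021 streptavidin peak, and 163 had a CHIR99021 streptavidin peak and no anti-FLAG peak. They are called anti-FLAG regions and streptavidin regions with a DMSO peak. Because the calls chose them, every value drawn from those calls is given as a description, with no test.

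β-Catenin, encoded by Ctnnb1, carries the canonical Wnt signal into the nucleus, where it binds DNA through TCF/LEF transcription factors. Without a Wnt signal, GSK3 phosphorylates β-catenin and marks it for degradation. CHIR99021 inhibits GSK3, and embryonic stem cells are often cultured with it because it stabilises β-catenin and helps them to self-renew.

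All libraries came from a V6.5 line with a Biotin-3xFLAG tag knocked into Ctnnb1, together with the BirA ligase that biotinylates it, and the cells grew in serum and LIF on feeder cells from DR4 mice. The groups were CHIR99021 at 3 µM captured by anti-FLAG, CHIR99021 at 3 µM captured by streptavidin, and the vehicle DMSO with streptavidin capture, each with 1 library and 10000000 cells per ChIP. The dose is that of the treatment labels, whereas the extraction protocol gives it in mM. Treatment lasted 16 h per the protocol and 24 h per the series text. The DMSO library is labelled streptavidin and its header names a Biotin ChIP, although its run and its peak list were named for FLAG. The label was followed here. Cells were enriched for stem cells by leaving the mixture to settle on gelatin, no ChIP from untagged cells was among the samples, and peak lists hold no marker by which the cell type could be checked.

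The MACS peak caller gave each peak a count of sequence tags (aligned reads), a p score, an enrichment as a fold over local background, and a false discovery rate (FDR). A p score is −log10 of the peak's p-value multiplied by 10, and the lowest accepted score was 50. Under CHIR99021, 16069 peaks came from 16100920 unique tags by anti-FLAG and 15947 peaks from 11934863 unique tags by streptavidin. The DMSO list had 12734 peaks, and the depth of that library is unknown. The fragment size set by MACS was 30 bp for the DMSO list, against 185 and 214 bp for CHIR99021 anti-FLAG and streptavidin. DMSO peaks are therefore short, and their number, lengths and folds cannot be set against those of the CHIR99021 lists. Median folds were 25.8 in the DMSO list, and 8.13 and 8.56 in the CHIR99021 anti-FLAG and streptavidin lists. With 1 library per group there is no replicate error. The intervals given with shares are 95% exact (Clopper-Pearson) intervals over regions or peaks and cover counting error only. Coordinates are those of the deposited tables, mouse build mm9. A capture without a called peak may still have had signal below the cutoff, since the lists hold called peaks only.

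Regions with a single capture seldom held a DMSO peak. Among regions of anti-FLAG without streptavidin, 162 of 6814 did (2.38%, interval 2.03 to 2.77%). Among regions of CHIR99021 streptavidin without anti-FLAG, 163 of 6731 did (2.42%, interval 2.07 to 2.82%). Among regions of both CHIR99021 lists the count was 1180 of 9113 (12.9%), and among all regions with a CHIR99021 peak it was 1505 of 22658 (6.64%). Both subsets thus held nearly the same number of regions and nearly the same share. These shares are fixed by the calls that chose the regions. Set against the length searched, the anti-FLAG single-capture regions held 32.2 DMSO peaks per Mb of anti-FLAG peak and the streptavidin ones 30.4 per Mb, beside 129.8 per Mb in regions of both captures and 6.81 per Mb over the effective genome size in the headers.

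Each of the 325 regions held exactly 1 CHIR99021 peak. A second DMSO peak was present in 7 of the 162 anti-FLAG regions and in 13 of the 163 streptavidin regions, and no region held 3 or more, which gives 169 and 176 DMSO peaks in all. Most DMSO peaks lay wholly inside the CHIR99021 peak, at 92.3% in anti-FLAG regions (156 of 169) and 91.5% in streptavidin regions (161 of 176), against 99.2% in regions of all 3 lists. The margin of the choice was narrow for a few regions. The smallest overlap that admitted an anti-FLAG region was 7 bp, by a DMSO peak of 6 tags at chr7:71233173-71233234 and by one of 9 tags at chr8:129022700-129022774. In the streptavidin subset it was 6 bp, by a DMSO peak of 11 tags at chr10:127735222-127735285. Just outside the choice, 25 of 6652 anti-FLAG regions and 25 of 6568 streptavidin regions without a DMSO peak had one within 200 bp, with the nearest 3 bp and 12 bp away.

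The CHIR99021 peaks of these regions were mostly modest. In anti-FLAG regions with a DMSO peak they had a median of 42.5 tags (range 14 to 521), a median p score of 72.7 (50.03 to 975.21) and a median fold enrichment of 6.57 (2.98 to 51.49). In streptavidin regions with a DMSO peak the medians were 33 tags (13 to 7407), a p score of 67.4 (50 to 670.13) and a fold enrichment of 6.62 (1.67 to 15.99). Anti-FLAG regions without DMSO or streptavidin had medians of 25 tags, a p score of 61.9 and a fold of 6.91. Streptavidin regions without DMSO or anti-FLAG had 22 tags, 60.5 and 7.32. Regions with a DMSO peak thus had more tags and a higher p score than the single-capture regions without one, and a slightly lower median fold.

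Length went the same way as tags. Median CHIR99021 peak length was 944 bp in anti-FLAG regions with a DMSO peak and 951 bp in streptavidin regions with one, against 686 and 745 bp in the single-capture regions without. Tags per kb differed less, with medians of 42.1 and 34.1 in the regions with a DMSO peak and 36.6 and 29.5 in those without. Regions of all 3 lists stood well above all of these, with medians of 117 anti-FLAG and 99 streptavidin tags and fold enrichments of 17.0 and 17.6.

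The rank of the peaks within their own lists shows the same order. By p score the median anti-FLAG region with a DMSO peak stood at percentile 40.5 of the anti-FLAG list, against 27.1 for anti-FLAG regions without one and 91.4 for regions of all 3 lists. The median streptavidin region with a DMSO peak stood at percentile 37.2 of its list, against 27.0 and 91.5. In the lower 50% of its list lay 63.0% of the anti-FLAG regions with a DMSO peak (interval 55.03 to 70.4%) and 69.9% of the streptavidin ones (62.3 to 76.9%), against 82.7% and 83.0% of the regions without. A score under 55, close to the cutoff, was held by 27 of the 162 anti-FLAG and 37 of the 163 streptavidin regions (16.7% and 22.7%), against 26.8% and 28.7% without a DMSO peak.

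**Figure D1:**
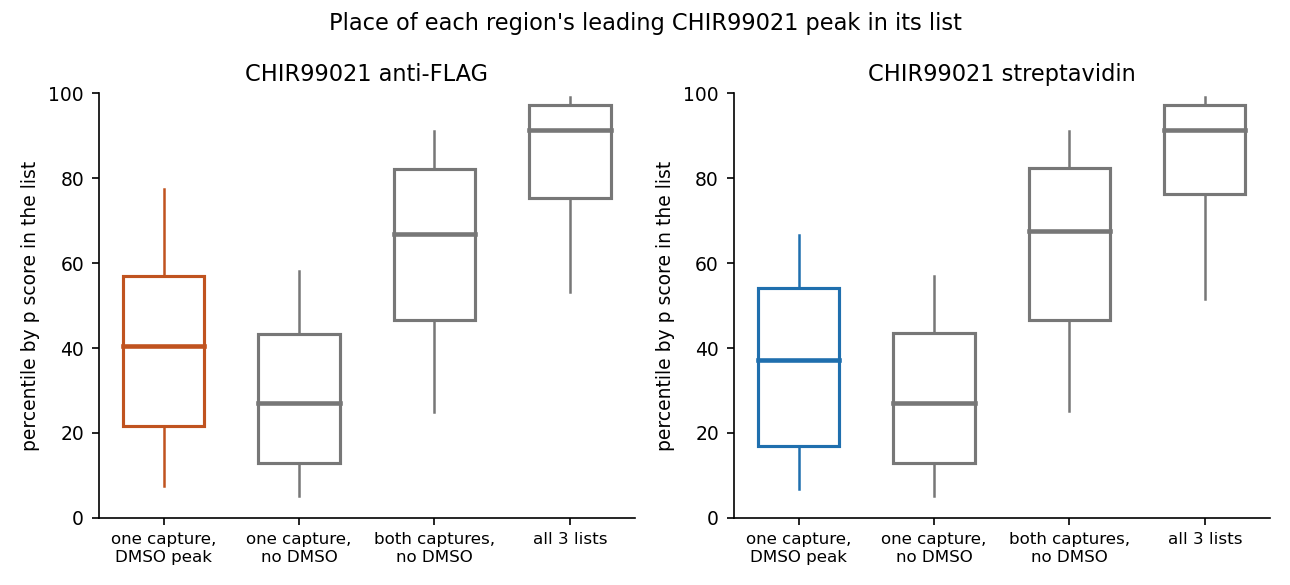
Percentile by p score of each region's leading CHIR99021 peak within the anti-FLAG list (left) and the CHIR99021 streptavidin list (right), for regions of that capture alone with a DMSO peak (coloured), that capture alone without one, both captures without one, and all 3 lists. Lines mark the median, boxes the middle 50% and whiskers the 10th to 90th percentile of regions, and the medians of the coloured boxes, 40.5 and 37.2, lie above those of the next box and far below those of regions of all 3 lists.

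At the upper end, the subsets differed more by fold than by p score. A p score of at least 100 was reached by 39 anti-FLAG regions with a DMSO peak (24.1%, interval 17.7 to 31.4%) and by 28 streptavidin regions with one (17.2%, 11.7 to 23.9%), against 10.3% and 6.62% of the regions without. By this measure both subsets stood above the regions without a DMSO peak, and their intervals overlap. The 28 streptavidin regions include 5 with very high counts in both libraries, described below. A fold enrichment of at least 10 was reached by 25 anti-FLAG regions (15.4%, 10.2 to 21.9%) and by 10 streptavidin regions (6.13%, 2.98 to 10.99%). The intervals of both subsets overlap for fold as well, though narrowly. Without a DMSO peak the same fold was reached by 8.85% of anti-FLAG and 9.17% of streptavidin regions. The share of high folds was above that of regions without a DMSO peak in the anti-FLAG subset, beyond its counting interval, and below it in the streptavidin subset, within its counting interval. With no replicate, whether this difference between captures would recur was not tested.

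The share of single-capture regions that held a DMSO peak was higher in each higher class of p score. For anti-FLAG it was 1.53% at scores of 50 to 60, 2.10% at 60 to 75, 3.23% at 75 to 100, 4.25% at 100 to 200 and 14.0% at 200 or more (12 of 86, interval 7.42 to 23.1%). For CHIR99021 streptavidin it was 1.67%, 2.48%, 2.98% and 5.95% in the first 4 classes. The top class held only 9 streptavidin regions, 1 of them with a DMSO peak, so its 11.1% has an interval of 0.281 to 48.2%. That region was chr1:24618181-24623212, which had very high counts in both libraries and is described below. In the lowest class regions of both captures stood above the single-capture ones, at 4.64% by anti-FLAG score and 4.98% by streptavidin score, and in the class of 200 or more they reached 26.9% and 28.1%.

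The share was also higher with peak length. It was 0.918% for anti-FLAG peaks under 600 bp and 5.74% for those of 1500 bp or more, and 0.964% and 6.44% for the same classes of streptavidin peaks. Counted per Mb of peak length, there were 23.1 DMSO peaks per Mb at anti-FLAG scores of 50 to 60, 48.3 at 100 to 200 and 162.9 at 200 or more. Streptavidin single-capture regions had 23.0 per Mb in the lowest class and 55.4 at 100 to 200. The part of length in the order by score was not tested.

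**Figure D2:**
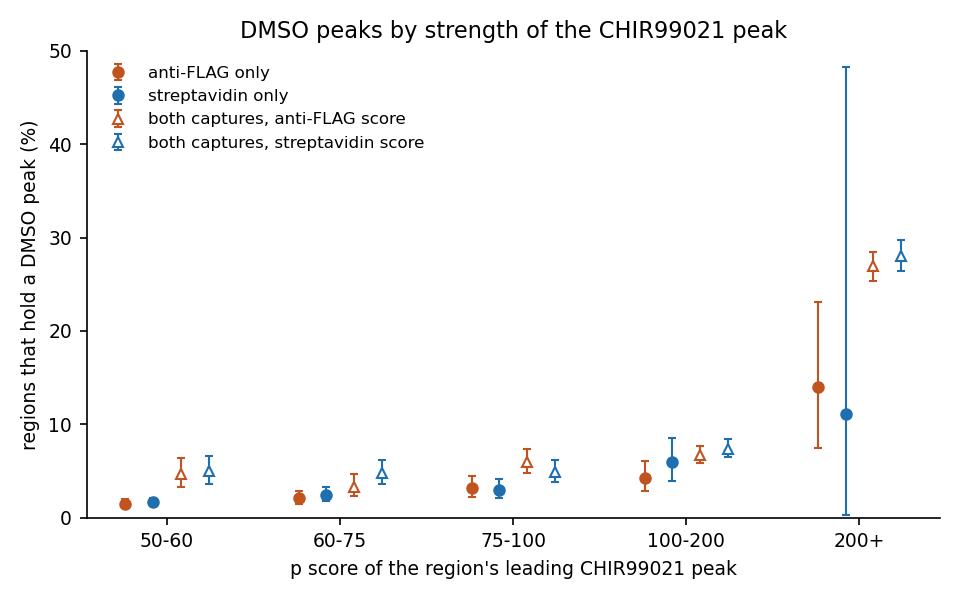
Share of regions that held a DMSO peak (percent, vertical axis) by class of the p score of the region's leading CHIR99021 peak (horizontal axis), for anti-FLAG only, streptavidin only, and both captures ranked by either score; bars are 95% exact intervals. The single-capture shares are between 1.53% and 5.95% up to a score of 200 and reach 14.0% for anti-FLAG above it, and the wide bar at the right rests on 9 streptavidin regions.

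The DMSO peaks in these regions were small. Exactly 6 tags, the smallest count in the DMSO list, made up 97 of the 169 DMSO peaks in anti-FLAG regions (57.4%, interval 49.6 to 65.0%) and 89 of the 176 in streptavidin regions (50.6%, 42.9 to 58.2%). The share was 29.1% in regions of all 3 lists and 78.0% among DMSO peaks outside all CHIR99021 regions. A count of 10 or more was reached by 23 DMSO peaks in anti-FLAG regions (13.6%, 8.83 to 19.7%) and 17 in streptavidin regions (9.66%, 5.73 to 15.0%), against 33.9% in regions of all 3 lists and 2.12% of DMSO peaks on their own. By tag count both subsets stood between DMSO peaks alone and those of all 3 lists.

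By fold both subsets also lay between these, close to regions of all 3 lists. The median DMSO fold was 20.1 in anti-FLAG regions and 20.7 in streptavidin regions, 19.6 in regions of all 3 lists, and 25.8 for DMSO peaks on their own. The median DMSO p score was 63.7 in anti-FLAG regions and 62.9 in streptavidin regions, below both the 67.3 of DMSO peaks on their own and the 68.5 of all 3 lists. The median FDR of the DMSO peaks was 3.35% in both subsets. An FDR of at most 5% for the leading DMSO peak was met in 125 of 162 anti-FLAG regions (77.2%) and 122 of 163 streptavidin regions (74.8%). A low FDR did not mark the larger DMSO peaks. The DMSO peak in chr2:33945858-33946658, with 15 tags and a p score of 113.33, had an FDR of 17.87%. That in chr16:3231416-3237833, with 8 tags and a score of 50.61, had 3.35%. The order was not the same throughout, since the leading DMSO peak in chr1:24618181-24623212, with a score of 1226.36, had 0%.

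With a DMSO peak of 10 tags or more, the median fold of the CHIR99021 peak was higher in the anti-FLAG subset, on few regions. From 6 tags to 7 to 9 tags it did not rise. In the 23 anti-FLAG regions with a DMSO peak of 10 tags or more, the CHIR99021 peak had a median of 85 tags and a median fold of 10.7, with a fold of at least 10 in 12 of them and a p score of at least 100 in 14. In the 92 anti-FLAG regions whose largest DMSO peak had 6 tags, the medians were 38.5 tags and a fold of 6.64. In the 47 anti-FLAG regions whose largest DMSO peak had 7 to 9 tags, they were 41 tags and a fold of 6.05. In the 16 streptavidin regions with a DMSO peak of 10 tags or more, the medians were 74.5 tags and a fold of 4.81, and 1 had a fold of at least 10. The 95% intervals of the median folds, taken from the ordered values, were 4.61 to 18.04 in the 23 anti-FLAG regions and 3.78 to 7.16 in these 16. The first of these also holds the 6.64 of the anti-FLAG regions with 6 tags. Both intervals run over regions of 1 library per capture, so they cannot show whether the captures differ. The 16 streptavidin regions include the 5 regions with very high counts in both libraries described below. Without those 5, the other 11 had medians of 51 tags and a fold of 6.62, and none reached a p score of 100. In the 84 streptavidin regions whose largest DMSO peak had 6 tags, the medians were 28.5 tags and a fold of 7.39.

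**Figure D3:**
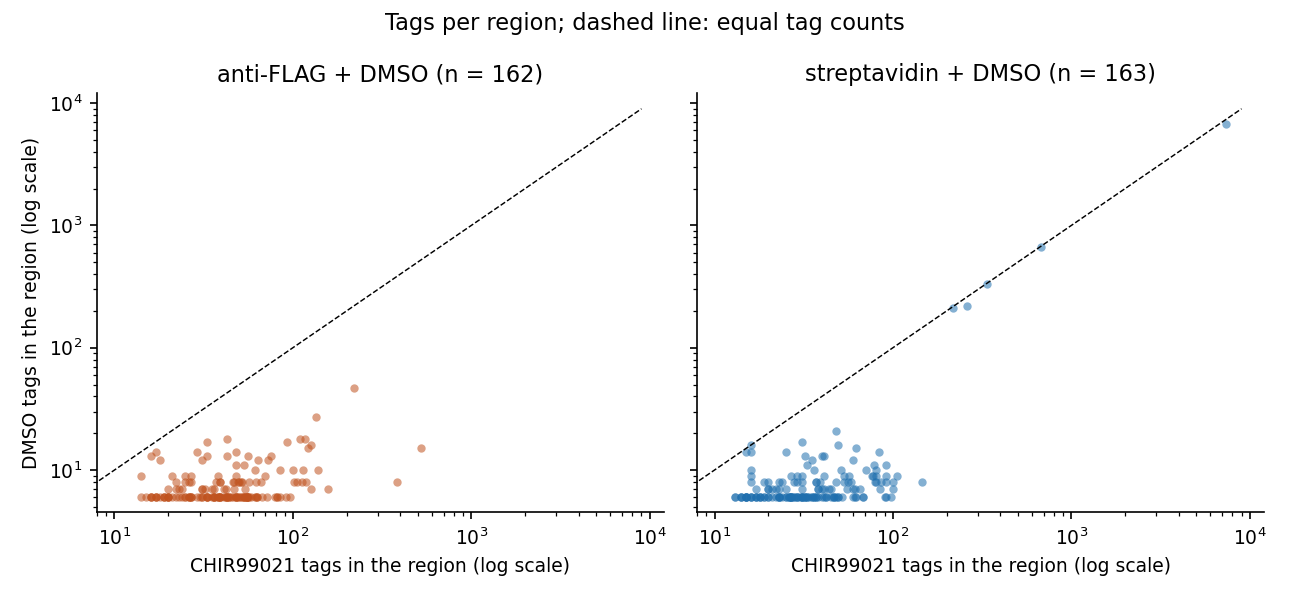
Sequence tags per region in the CHIR99021 library (horizontal, log scale) and the DMSO library (vertical, log scale), 1 point per region, for anti-FLAG regions (left, n = 162) and streptavidin regions (right, n = 163) with a DMSO peak; DMSO tags are summed over the region's DMSO peaks and the dashed line marks equal counts. Most points lie near the lower limit of 6 DMSO tags, and 5 streptavidin regions with 213 to 6807 DMSO tags lie close to the dashed line.

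Across regions the counts of both libraries were weakly related. Spearman's rho between CHIR99021 and DMSO tags was 0.27 over the 162 anti-FLAG regions and 0.38 over the 163 streptavidin regions. Between the p scores it was −0.00013 and −0.059. The regions share their libraries and differ in length, so these are descriptions only. The ratio of CHIR99021 to DMSO tags had a median of 6.0 in anti-FLAG regions (range 1.21 to 47.9). It was 4.67 in the 158 streptavidin regions other than those 5 (range 1 to 18.1), and 10.7 by anti-FLAG and 9.24 by streptavidin in regions of all 3 lists. Since the DMSO depth is unknown and its intervals are shorter, the ratio orders regions within a pair of lists and measures no change with treatment.

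The strongest anti-FLAG regions, taken by a p score of 200 or more, numbered 12, with 46 to 221 anti-FLAG tags (median 104.5) and a fold of 11.6 to 51.5 (median 20.4). Their DMSO peaks had 6 to 47 tags (median 14), and 10 of the 12 had at least 10. The nearest CHIR99021 streptavidin peak lay 8419 to 136788 bp away (median 68603.5 bp). In the top 10% of the anti-FLAG list 26 regions lacked a streptavidin peak, and 7 of these held a DMSO peak (26.9%, interval 11.6 to 47.8%). Regions among the 26 without a DMSO peak were as strong, such as chr12:44073587-44074415 with 159 tags and a fold of 60.1. In the top 10% of the CHIR99021 streptavidin list 1 region lacked an anti-FLAG peak, and it held DMSO peaks. It was chr1:24618181-24623212, with folds of 1.67 under CHIR99021 and 1.49 under DMSO, 1 of the 5 high-count regions described below.

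The highest anti-FLAG score belonged to chr2:33945858-33946658, 801 bp long. It had 122 anti-FLAG tags, a p score of 975.21 and a fold of 51.5, beside a DMSO peak of 15 tags with a fold of 23.5. The summits lay 7 bp apart, and the nearest CHIR99021 streptavidin peak was 131963 bp away. Second was chr13:55071850-55072844, with 117 anti-FLAG tags and a fold of 47.7 beside 18 DMSO tags and a fold of 65.9, the summits 15 bp apart. That DMSO fold was the highest among the DMSO peaks of both subsets. Next was chr4:21639036-21639988, with 134 anti-FLAG tags and a fold of 20.8 beside 27 DMSO tags and a fold of 10.6. Its nearest streptavidin peak, chr4:21648408-21649206 with 18 tags, lay 8419 bp away.

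Of the next 5 by score, 4 had folds of 18.04 to 20.6. The region chr7:52025347-52025922 had 85 anti-FLAG tags and a fold of 20.6 beside 10 DMSO tags, and the summits lay 160 bp apart, the widest spacing among the 12. The regions chr9:20661215-20662339 and chr11:55420966-55421984 had 127 and 109 anti-FLAG tags with folds of 20.3 and 19.2, beside 16 and 18 DMSO tags. The region chr19:42330268-42331103 had 100 anti-FLAG tags and a fold of 18.04 beside 10 DMSO tags. The region chr11:103781804-103782600 differed from these in its DMSO peak, which had the minimum of 6 tags, beside 58 anti-FLAG tags and a fold of 30.4.

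The anti-FLAG region with the most DMSO tags was chr9:108728660-108730604, with 221 anti-FLAG tags and a fold of 11.6 beside 47 DMSO tags and a fold of 11.6. Its summits were 37 bp apart. Anti-FLAG tags were several times the DMSO tags. The folds had the same value but are not on one scale, since the list medians were 8.13 by anti-FLAG and 25.8 for DMSO. Among the 5 anti-FLAG regions with the most DMSO tags, chr9:54685135-54686091 was the weakest by CHIR99021, with 43 anti-FLAG tags and a fold of 4.61. Its 18 DMSO tags came from 2 DMSO peaks, and a CHIR99021 streptavidin peak lay 1455 bp away.

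In the streptavidin subset 5 regions stood apart by their counts. Each held more than 100 DMSO tags, which no anti-FLAG region with a DMSO peak did, and which 9 regions of all 3 lists and 10 DMSO regions outside the CHIR99021 lists also did. The region chr1:24618181-24623212, 5032 bp long, had 7407 streptavidin tags under CHIR99021 and 6807 under DMSO, with folds of 1.67 and 1.49. The region chr10:95539852-95541026 had 676 streptavidin tags under CHIR99021 and 664 under DMSO, with folds of 4.04 and 1.62. The region chr6:79767895-79768779 had 337 under CHIR99021 and 331 under DMSO, with folds of 3.92 and 2.11. In all of these the tag counts were nearly equal and the folds over the local background were low.

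The remaining high-count regions were alike. The region chr12:98299489-98300192 had 259 streptavidin tags under CHIR99021 and 219 under DMSO, with folds of 3.34 and 2.77. The region chr2:69193404-69193916 had 218 under CHIR99021 and 213 under DMSO, with folds of 2.56 and 1.92. Over the 5 regions the ratio of CHIR99021 to DMSO tags lay between 1.02 and 1.18, with a median of 1.02. Together they held 8897 of the streptavidin tags and 8234 of the DMSO tags in the subset, more than the other 158 regions with 6335 and 1201. Any sum of tags over the streptavidin subset is therefore set by them.

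The high-count regions on chromosomes 1, 6, 10 and 12 were among the 8 streptavidin regions with the highest CHIR99021 p scores. The other 4 of the 8 were long regions with small DMSO peaks. The region chr16:22428573-22430947 had 97 streptavidin tags and a fold of 6.88 beside 6 DMSO tags, the summits 32 bp apart. The region chr8:123036812-123039846 had 145 tags and a fold of 7.04 beside 8 DMSO tags, the summits 89 bp apart. The region chr17:84579740-84582034 had 85 tags and a fold of 6.79 beside 7 DMSO tags, and its summits were 831 bp apart. The region chr13:113229974-113231609 had 62 tags and a fold of 8.63 beside 6 DMSO tags, and its summits were 471 bp apart.

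Position inside the CHIR99021 peak was used by the choice only through the shared base. The DMSO summit lay within 200 bp of the CHIR99021 summit for 103 of 169 DMSO peaks in anti-FLAG regions (60.9%, interval 53.2 to 68.3%; median distance 142 bp). In streptavidin regions it did so for 108 of 176 (61.4%, 53.7 to 68.6%; median 167.5 bp). That window covered 37.1% of the anti-FLAG peak length and 34.9% of the streptavidin peak length in these regions. DMSO summits were thus more frequent near the CHIR99021 summit than this pooled share of length, in both subsets. The pooled share sums bases over all peaks, so the longest ones, of up to 7215 and 5032 bp, lower it. An average of the share per region was not computed, so the size of the excess is not given. In regions of all 3 lists the share was 79.7% by either CHIR99021 list, with a median distance of 99 bp and a window that covered 28.8% and 27.1% of the peak length. The outer 20% at either end of the CHIR99021 peak, or the space past its ends, held the DMSO summit in 25.4% and 23.9% of cases in the single-capture regions, against 9.05% and 9.55% in regions of all 3 lists.

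**Figure D4:**
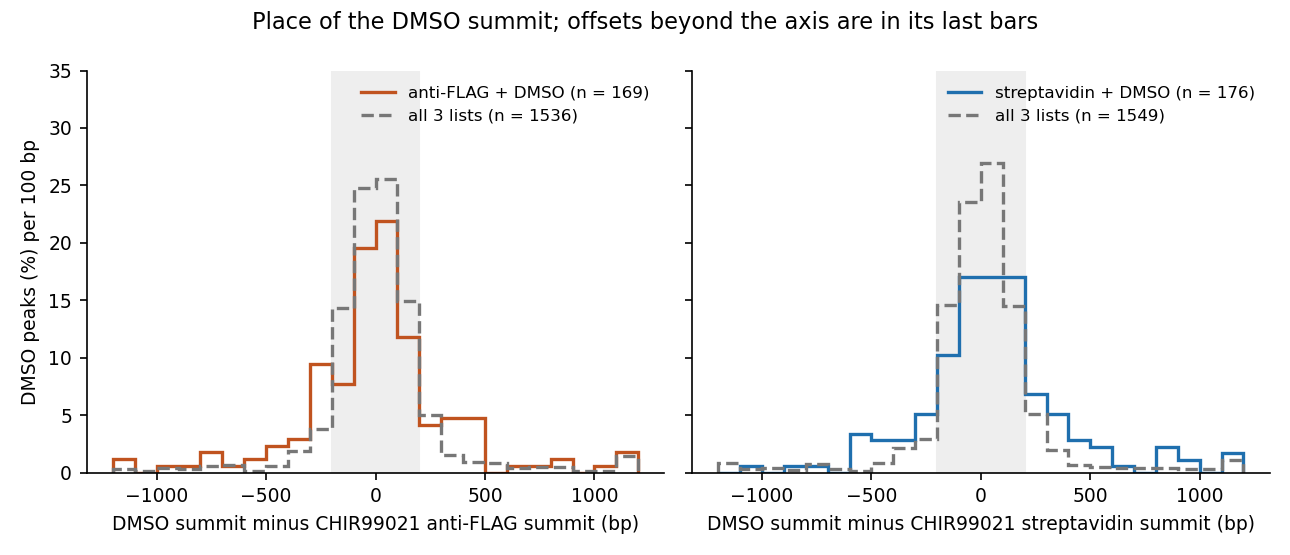
Distance of the DMSO summit from the CHIR99021 summit in bp (horizontal axis) as the percent of DMSO peaks per 100 bp bin (vertical axis), for anti-FLAG regions (left) and streptavidin regions (right) with a DMSO peak, with regions of all 3 lists dashed; the grey band is 200 bp to either side. Both subsets are centred on the CHIR99021 summit, with 60.9% and 61.4% of DMSO summits in the band against 79.7% in regions of all 3 lists.

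Spacing was tightest in the strongest anti-FLAG regions. In the 12 anti-FLAG regions with a p score of 200 or more all 12 DMSO summits lay within 200 bp, at a median of 32.5 bp. At scores of 100 to 200 it was 15 of 29 (51.7%, interval 32.5 to 70.6%), and at 50 to 100 it was 76 of 128 (59.4%, 50.3 to 68.0%). Below a score of 200 no order with score was seen. In streptavidin regions the share was 19 of 28 at 100 to 200 (67.9%, 47.6 to 84.1%) and 88 of 146 at 50 to 100 (60.3%, 51.9 to 68.3%). By the size of the DMSO peak, 18 of 23 DMSO peaks of 10 tags or more in anti-FLAG regions lay within 200 bp (78.3%, 56.3 to 92.5%), against 57 of 97 with 6 tags (58.8%, 48.3 to 68.7%). In streptavidin regions these were 12 of 17 (70.6%, 44.0 to 89.7%) and 52 of 89 (58.4%, 47.5 to 68.8%), and the intervals overlap in both subsets. At 7 to 9 tags it was 28 of 49 in anti-FLAG regions (57.1%, 42.2 to 71.2%) and 44 of 70 in streptavidin regions (62.9%, 50.5 to 74.1%). Of the 23 anti-FLAG DMSO peaks of 10 tags or more, 10 lay in the 12 regions with a p score of 200 or more. The order by score and the order by DMSO tags thus share these regions.

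The capture without a call was seldom close by. A peak of the other CHIR99021 list lay within 1 kb of 11 anti-FLAG regions (6.79%, interval 3.44 to 11.8%) and of 9 streptavidin regions (5.52%, 2.56 to 10.2%), against 3.68% and 4.20% of single-capture regions without a DMSO peak. Within 10 kb the shares were 22.2% and 23.9%, against 21.3% and 22.4%, and within 100 kb they were 76.5% and 74.8%, against 78.0% and 77.6%. Median distances were 39746 and 33886 bp, against 36573.5 and 37102 bp. At each of these limits the interval of the regions with a DMSO peak held the share of those without.

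The 3 nearest regions of each subset lay beside peaks of the other capture that ranged from modest to strong. The anti-FLAG region chr9:5410862-5411785, with 33 tags and a fold of 6.30, ended 50 bp before a CHIR99021 streptavidin peak of 124 tags and a fold of 19.1 at chr9:5411836-5413456. The streptavidin region chr10:23523974-23525297, with 61 tags and a fold of 6.95, lay 179 bp from an anti-FLAG peak of 285 tags and a fold of 59.6 at chr10:23525477-23526790. The streptavidin regions chr4:141625959-141628255 and chr6:85797687-85798853 lay 75 and 116 bp from anti-FLAG peaks of 94 and 95 tags. In each of these pairs the peak of the other capture had the higher fold. The anti-FLAG regions chr3:18595145-18596124 and chr17:46947271-46948145 lay 375 and 654 bp from streptavidin peaks of 38 and 46 tags with folds of 15.4 and 8.16. The medians of the streptavidin list were 34 tags and a fold of 8.56. The anti-FLAG region on chromosome 3 had a fold of 10.9 and 2 DMSO peaks with 13 tags in all, and that on chromosome 17 had 6 DMSO tags with its summit 3 bp from the anti-FLAG summit.

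Other regions lay far from any peak of the other capture. The anti-FLAG region farthest away, chr4:3006434-3013648, was 710752 bp from the nearest streptavidin peak. It was also the longest anti-FLAG region with 7215 bp, had the most anti-FLAG tags with 521, and had the lowest anti-FLAG fold with 2.98, beside 15 DMSO tags. The anti-FLAG regions chr7:37429017-37429873 and chr8:100901386-100902232 lay 529896 and 509982 bp away, with 55 and 49 tags and folds of 7.55 and 7.72. The streptavidin regions chr11:105310395-105311446, chr4:89032263-89033465 and chr6:118428752-118430075 lay 843483, 640007 and 596329 bp from the nearest anti-FLAG peak. Their CHIR99021 peaks had 29, 36 and 49 tags, and their DMSO peaks 6, 6 and 16 tags. Of these 6 regions, the one on chromosome 4 with 521 tags was the only long and tag-rich one, and the other 5 were 847 to 1324 bp long with 29 to 55 tags.

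Length and low fold singled out a few more regions. After the region at the start of chromosome 4, the longest anti-FLAG regions were chr16:3231416-3237833 with 6418 bp, 383 tags and a fold of 3.88, and chr10:77828182-77831461 with 3280 bp, 158 tags and a fold of 5.69. Their DMSO peaks had 8 and 7 tags and lay 1015 and 1647 bp from the anti-FLAG summit. Low folds were also seen at chr8:73221840-73223497, with 114 anti-FLAG tags and a fold of 3.30, and at chr11:98331118-98332659, with 61 tags and a fold of 3.37. Among the 3 longest streptavidin regions, the shortest was chr2:4964995-4967636, with 2642 bp, 91 tags and a fold of 9.48 beside 6 DMSO tags, 669 bp from its summit.

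The regions were spread over chromosomes 1 to 19 and X. The DMSO list as a whole is dense on chromosomes 8 and 9, which held 20.6% of its peaks. They held 26 of the 162 anti-FLAG regions with a DMSO peak (16.0%, interval 10.8 to 22.6%) and 32 of the 163 streptavidin ones (19.6%, 13.8 to 26.6%). Single-capture regions without a DMSO peak had 12.6% and 13.2% there, regions of all 3 lists 15.2%, and DMSO peaks on their own 21.4%. The intervals of both subsets hold the shares of the DMSO list and of regions without a DMSO peak alike, except that 13.2% lies just under the streptavidin interval. Chromosome X held 1 anti-FLAG region and 5 streptavidin regions.

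**Figure D5:**
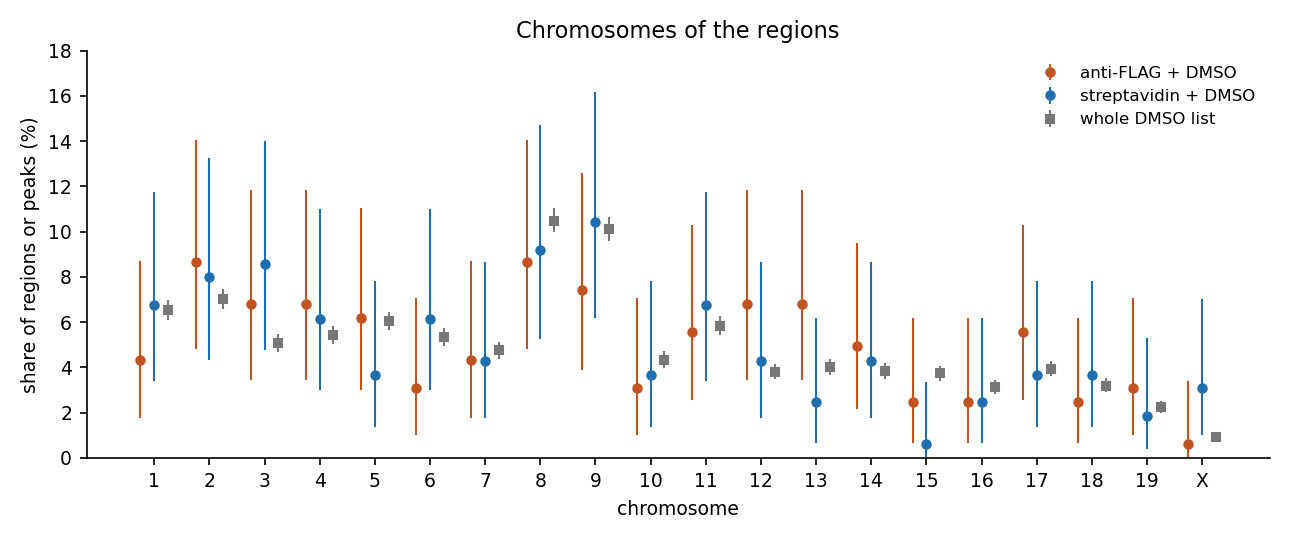
Share of regions or peaks (percent, vertical axis) on each chromosome (horizontal axis) for anti-FLAG regions with a DMSO peak, streptavidin regions with a DMSO peak and the whole DMSO list; bars are 95% exact intervals. The DMSO list stands out on chromosomes 8 and 9, where the region shares have wide intervals that include those of the list.

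Few of the 325 regions had another one nearby. Within 100 kb of another were 10 anti-FLAG regions and 1 streptavidin region. On chromosome 8 a streptavidin region, chr8:73218852-73220973, and an anti-FLAG region, chr8:73221840-73223497, lay 866 bp apart, with 80 and 114 CHIR99021 tags and 10 DMSO tags each. This was the only place where both subsets came that close. Anti-FLAG regions lay 4239 bp apart at chr4:138661487-138662708 and chr4:138666948-138667654, with 36 and 27 anti-FLAG tags and 6 and 9 DMSO tags. The second of these had a DMSO fold of 46.3 beside an anti-FLAG fold of 10.3.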

How the data were processed

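β-Catenin ChIP-seq was measured in 3 ChIP libraries, and 2 input libraries served as the authors' controls. The authors deposited MACS tables, 1 per ChIP library, with mm9 as the build, per the submitters' processing notes. Per the file headers, each row gives a whole-number tag count, a score from the p-value, an FDR in percent and the fold ratio to local background, from ELAND alignments with a p-value cutoff of 1.00e-05. Which MACS version was run is not given in the sources here. The deposited interval lists repeat the CHIR99021 tables, and the one for DMSO holds 400 bp windows.

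Intervals of the 3 tables were merged where they overlapped or touched. The merging was tested on simulated intervals. Values were ranked within a list only. The members, lists and alternatives were chosen with earlier results of these data known. In each subset the regions named were the 8 with the highest CHIR99021 score, the 5 with the most DMSO tags, the 3 nearest to and 3 farthest from the other capture, the 3 longest, the 3 with the lowest fold, and those with 3 or more DMSO peaks (there were none). Neighbouring regions, smallest overlaps and the strong region without a DMSO peak were named after their values were seen. No mm9 genome or annotation was used here, so no gene, sequence or motif was assigned, and the planned sequence and gene context was not run. No test across samples was possible with 1 library per group. Python 3.11.15, pandas 2.3.3, numpy 2.4.6, scipy 1.17.1 and matplotlib 3.10.9 were used.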

Additional observations from a re-analysis of the deposited data

How the results depend on the processing

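The number of regions depended on the peak threshold and the merging. It was 162 anti-FLAG and 163 streptavidin regions in the main setting, 253 and 250 when gaps of up to 1000 bp were merged, 68 and 80 where each list kept folds of at least 10, 11 and 2 where each kept p scores of at least 100, and 23 and 16 with DMSO peaks of at least 10 tags. With DMSO peaks of at least 7 tags, a setting added after seeing the data, it was 70 and 79. The share of single-capture regions with a DMSO peak was 3.89% and 3.93% with gaps of 1000 bp, 1.88% and 1.87% at an FDR of at most 5%, 4.996% and 4.43% with the fold limit, 0.563% and 0.143% with the p score limit, 0.338% and 0.238% with at least 10 DMSO tags, and 1.03% and 1.17% with at least 7. A limit applied to each list also turns regions of both captures into single-capture ones: of the 68 and 80 regions with the fold limit, 24 and 10 were among the 162 and 163, and of the 11 and 2 with the p score limit, 5 and 2. Leading summits lay within 200 bp in 62.3% of anti-FLAG and 60.7% of streptavidin regions, in 37.9% and 38.0% with gaps of 1000 bp and in 78.3% and 75% with at least 10 DMSO tags. A peak of the other capture within 10 kb of streptavidin regions was found for 23.9%, and for 17.2% and 12.5% in those settings. By construction the limits remove peaks. Merging gaps of 1000 bp likewise admits DMSO peaks that lie outside the CHIR99021 peak. It also drops regions that have a peak of the other capture within 1000 bp. How much of the shifts these steps make up was not tested, nor was any other cause. For DMSO peaks the FDR limit is not a limit on strength, since some peaks of high score had a high FDR. Numbers of regions were taken as close within 1.5 times, and shares and medians within the main value's 95% interval. By these limits 44 of 72 numbers and shares recomputed stayed close and 28 moved, and of 40 medians 25 and 15. Merging only at shared bases, gaps of 200 bp, the 400 bp DMSO windows and leaving out chromosomes 8 and 9 kept both numbers of regions within 1.5 times. The unknown depth of the DMSO library limits every statement on a DMSO peak. No paired analysis was possible because groups consist of 1 library each and no result comes from a test.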

Other observations

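Anti-FLAG regions with a DMSO peak also came close together on 3 other chromosomes. On chromosome 12, chr12:12826306-12827495 and chr12:12832928-12833941 lay 5432 bp apart, with 52 and 48 anti-FLAG tags and 6 and 14 DMSO tags, and chr12:12916352-12917206 lay 82410 bp further on. On chromosome 13, chr13:23837970-23839423 and chr13:23848678-23849675 lay 9254 bp apart, with 57 and 42 anti-FLAG tags and 6 DMSO tags each. On chromosome 19, chr19:5797231-5799224 and chr19:5822989-5823856 lay 23764 bp apart, with 72 and 33 anti-FLAG tags and 6 DMSO tags each. All of these had folds by anti-FLAG between 3.97 and 7.21. These groups were named after their values were seen, and no explanation was tested.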
